A study of Zea mays with 48 samples.

Results

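The 200 genes described here were the steadiest of the well-expressed genes in roots of maize seedlings that were kept under tunicamycin for up to 48 h. They were chosen from the deposited read counts by a rule on their spread. Counts were scaled by the library total to CPM, a share of the counted reads, and 5115 of 23753 genes had a mean of 50 CPM or more over the 24 libraries. The 200 of these 5115 genes with the lowest coefficient of variation (CV, the SD over the 24 libraries divided by the mean) were taken as members. The CV therefore chose them, and their low spread is a description and not a result.

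Tunicamycin blocks the making of N-glycans, so that glycoproteins fold poorly in the endoplasmic reticulum and the unfolded protein response is switched on. In plants this response is led by the membrane kinase and RNase IRE1, which splices the mRNA of a bZIP transcription factor, and by bZIP factors that are released from the membrane. Transcripts that keep a constant share of the library through such a treatment are the kind used as reference genes, against which the levels of other genes are measured by quantitative PCR. Genes commonly used in this way in plants encode actins, tubulins, ubiquitin, elongation factors and parts of the protein degradation and vesicle traffic machinery.

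All seedlings were of the inbred line B73 and carried no transgene or mutation named in the labels. They were germinated at 30 °C and grown at 23 °C for 7 days in glass bottles, and the roots were harvested. The 8 groups of 3 libraries were roots after 0, 3, 6, 12, 24, 36 and 48 h with tunicamycin at 5 µg/ml, and roots after 48 h of mock treatment. What the mock treatment contained and whether seedlings were pooled are not stated in the labels. The design text gives 3 biological and 2 technical replicates per group, taken here as libraries I, II and III and as lanes 6 and 7. In the sample titles, lanes of the same library carry different biological replicate numbers, so the titles do not bear this reading out. What counts as a replicate in each test rests on it. The time-point label differs from the time in the library name for 42 of 48 lane samples, and groups follow the library name, which the columns of the count table carry. All group comparisons rest on that reading of the labels.

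The files give identifiers and no gene names. Of the 23753 identifiers 0 matched the reference table of 49888 genes, so the members are described by identifier, level, length and behaviour. For the same reason it could not be seen how many of the 200 belong to the commonly used reference gene families, nor could the root tissue be checked by marker genes. Counts of overlapping genes or of near-identical copies are uncertain, since the treatment of shared reads is not stated.

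The libraries held 7701856 to 38577551 counted reads, with a median of 24966395. Each library was run on lanes 6 and 7. Lane 7 of library II of 24 h was not used here, and that library, the shallowest, is used with 1 lane. Library II of 24 h stood apart, the lanes of library III of 24 h disagreed, and libraries I and II of a group were mostly closer to each other than to library III.

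The members formed the lower edge of a continuous distribution. Their CVs ran from 5.20% to 9.27% with a median of 8.45%, and the median over all 5115 well-expressed genes was 18.4%. The last gene inside the threshold, Zm00001d044699, had a CV of 9.268% (83.7 CPM), and the first gene outside it, Zm00001d031101, had 9.274% (94.4 CPM). The 200 genes that follow in the order of CV spanned 9.27% to 10.7%.

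**Figure D1:**
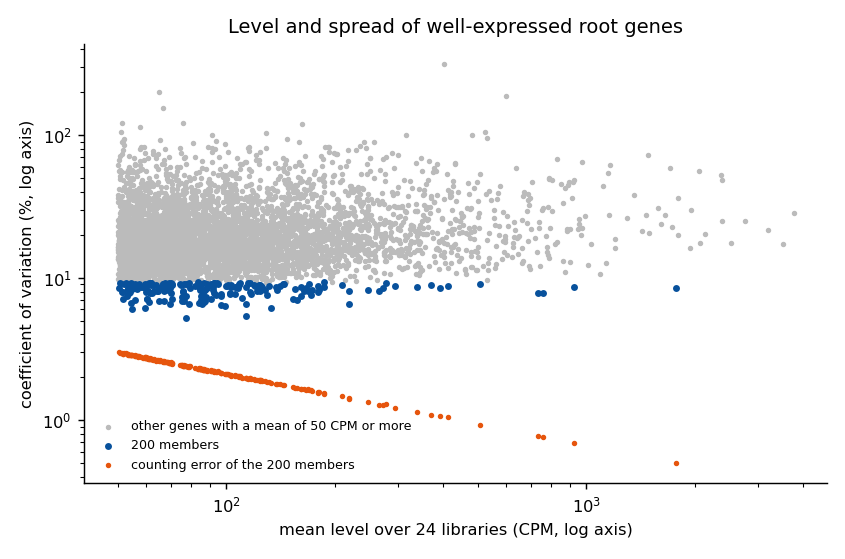
Mean level over the 24 libraries (CPM, log axis) against the coefficient of variation (%, log axis) for the 5115 genes with a mean of 50 CPM or more. Blue points are the 200 members, with CVs from 5.20% to 9.27%, grey points are the other 4915 genes, and orange points are the counting error expected for each member, with a median of 2.28%.

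The spread of the members was larger than counting error. The CV that counting alone would give was 0.50% to 2.99% over the members, with a median of 2.28%. Counting error made up a median of 7.78% of a member's variance. Even the steadiest member, with a CV of 5.20% and a counting CV of 2.40%, therefore varied beyond its read number.

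Zm00001d011411 had the lowest CV, 5.20%, at 77.5 ± 4.03 CPM (SD, n = 24 libraries). Libraries I, II and III held 77.0, 78.0 and 74.8 CPM at 0 h, 76.8, 78.7 and 78.5 CPM at 3 h, and 78.9, 83.0 and 83.0 CPM at 6 h. They held 74.1, 79.7 and 68.6 CPM at 12 h, 69.7, 71.3 and 77.8 CPM at 24 h, and 77.8, 79.9 and 76.8 CPM at 36 h. At 48 h they held 76.7, 86.6 and 75.4 CPM with tunicamycin and 78.5, 80.5 and 76.7 CPM in the mock. Its lowest library was library III of 12 h and its highest was library II of 48 h, and the treated and mock groups of 48 h overlapped. The group means ran from 72.9 CPM at 24 h to 81.7 CPM at 6 h.

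Zm00001d007870 followed with a CV of 5.37% at 113.4 ± 6.08 CPM. Its mock libraries held 120.2, 120.0 and 119.8 CPM, an SD of 0.197 CPM, and the 3 libraries of 24 h held 102.0, 95.4 and 109.7 CPM. At 0 h it stood at 117.2, 108.2 and 111.6 CPM, between these groups. Its lowest library was library II of 24 h and its highest was library II of 36 h at 123.2 CPM. Its lowest group was that of 24 h, which overlapped 0 h.

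Zm00001d047856 had a CV of 6.08% at 54.6 ± 3.32 CPM. At 0 h its libraries held 56.8, 57.1 and 55.8 CPM, and at 3 h they held 52.3, 61.6 and 48.5 CPM, so that its lowest and highest library of all belonged to the same group. Its group means differed by 5.74% of its mean, from 53.5 CPM at 6 h to 56.6 CPM at 0 h. Most of its spread thus lay within groups.

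Zm00001d049360 had a CV of 6.12% at 133.1 ± 8.14 CPM. Its libraries held 141.0, 147.7 and 133.5 CPM at 0 h and 120.6, 128.6 and 130.9 CPM in the mock. These are its highest and lowest groups by mean, at 140.8 and 126.7 CPM. They do not overlap, and the tests over all genes given below did not call the difference. Its libraries of 48 h with tunicamycin held 124.0, 145.2 and 138.4 CPM and overlapped both.

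**Figure D2:**
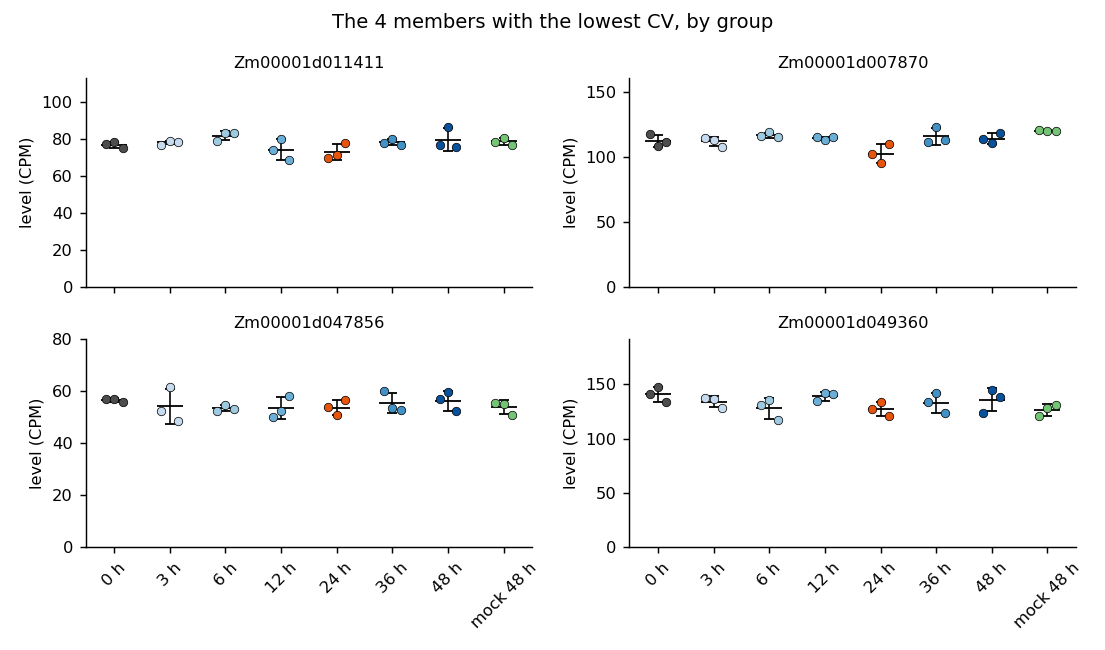
Level (CPM) of the 4 members with the lowest CV in each of the 24 libraries, by group, with the mean and SD of 3 libraries in black. The axes start at 0, and the group means of Zm00001d011411 lie between 72.9 and 81.7 CPM.

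Most members were moderately expressed. Their mean levels ran from 50.4 to 1770 CPM with a median of 85.3 CPM, against a median of 88.5 CPM over all well-expressed genes. Of the members, 128 lay between 50 and 100 CPM, 55 between 100 and 200 CPM, 12 between 200 and 500 CPM, and 5 at 500 CPM or more. Split by level into 5 bins of 1023 genes, the highest bin held 2.74% members and the middle bin 4.99%. The median CV of the well-expressed genes was 17.5% in the lowest bin and 20.2% in the highest.

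The member with the highest level was Zm00001d035156 at 1770 ± 149.0 CPM, rank 16 among all 23753 genes. Its lowest library held 1478 CPM (library III of 3 h), its median library 1757 CPM and its highest 2023 CPM (library III of 6 h). Its group means ran from 1649 ± 79.3 CPM in the mock to 1909 ± 25.5 CPM at 0 h (SD, n = 3 libraries). The 0 h libraries, at 1938, 1899 and 1890 CPM, all lay above the mock libraries, at 1595, 1611 and 1740 CPM. The tests over all genes given below did not call this difference either.

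Zm00001d049409 was the member with the next highest level, at 923.7 ± 79.7 CPM and rank 46 among all genes. It ran from 796.6 CPM in library III of 36 h to 1120 CPM in library III of the mock, and its median library held 916.4 CPM. Its group means were lowest at 12 h, at 847.9 ± 39.4 CPM, and highest in the mock, at 997.2 ± 108.1 CPM. Libraries I and II of the mock held 917.1 and 954.3 CPM, so library III set most of that group's spread. At the other end stood Zm00001d037291, with 50.4 ± 4.24 CPM and group means from 48.2 CPM in the mock to 53.4 CPM at 12 h.

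Scaled by length, the order of the members differs. Lengths were recovered from the deposited counts and RPKM values, and the labels do not say if they include introns. These lengths reached 66752 bp among the members and 128402 bp over all genes, and they are not read here as transcript lengths. The members ran from 1.02 to 429.3 CPM per kb with a median of 15.98 CPM per kb. Over all well-expressed genes the median was 19.6 CPM per kb. Zm00001d035156, at 4123 bp, was the highest on this scale too.

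Length was not part of the rule, and short genes were rare among the members. The members had a median length of 5296 bp with quartiles of 3949 and 8015 bp, where all well-expressed genes had 4792 bp with quartiles of 2932 and 7933 bp. Split by length into 5 bins of 1023 genes, the shortest bin, from 171 to 2515 bp, held 9 members (0.880%). The middle bin, from 3981 to 5703 bp, held 66 members (6.45%), and the other bins held 41 or 42. The median CV of the well-expressed genes was 26.9% in the shortest bin and 16.5% in the middle bin.

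Libraries differed in how long and short genes stood to each other. Across the 5115 well-expressed genes, the Spearman correlation of length with the log2 ratio of a gene's level to its own mean ran from -0.57 in library II of 24 h to 0.61 in library II of 48 h. Across the 200 members it ran from -0.29 in library I of 24 h to 0.24 in library III of 3 h. These are descriptions across genes that share a library, and genes are not independent replicates. The part of this difference in the choice of members was not tested.

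Between libraries, members moved by small amounts. The ratio of the highest to the lowest of the 24 libraries ran from 1.25 to 1.67 over the members with a median of 1.40, where the well-expressed genes had a median of 2.24. No member reached 2-fold (0 of 200), against 3194 of the 5115 well-expressed genes (62.4%). Within 20% of its own mean in all 24 libraries stayed 133 members, and within 10% stayed 0. The largest deviation of any member in any library was 31.2% of its mean. In bulk roots, fewer cells of a type and less RNA per cell cannot be told apart, and a steady CPM is a steady share of the counted reads.

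The group means of the members lay close together. The ratio of the highest to the lowest of the 8 group means ran from 1.06 to 1.299 with a median of 1.18, against a median of 1.53 for all well-expressed genes. All 8 group means lay within 10% of the overall mean for 117 members, within 15% for 195 and within 20% for all 200. The same held for 205, 791 and 1707 of the 5115 well-expressed genes. Differences between group means made up a median of 43.6% of a member's variance and 55.0% of that of a well-expressed gene. These shares are uncorrected. Means of 3 libraries differ even without a group effect, so part of each share comes from the spread within groups. The within-group CV of the members had a median of 7.23%, against 14.3% for the well-expressed genes.

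The extremes among the group means were Zm00001d047965 and Zm00001d051528. Zm00001d047965 had the smallest difference between group means, 5.61% of its mean, from 49.5 ± 7.49 CPM at 24 h to 52.4 ± 3.68 CPM at 36 h. Its libraries of 24 h held 53.5, 40.9 and 54.2 CPM, so that 1 library, II of 24 h, lay far below the others while the group mean stayed close. Zm00001d051528 had the largest difference, 26.02% of its mean. It held 54.1, 54.9 and 51.5 CPM at 0 h, 62.1, 70.2 and 70.5 CPM at 6 h, and 70.5, 72.7 and 65.4 CPM at 48 h with tunicamycin. All libraries of 6 h and 48 h lay above those of 0 h, and the mock libraries, at 64.5, 65.4 and 63.0 CPM, did too.

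The members did not share 1 time course. The highest group mean was that of 6 h for 52 members, 0 h for 40, 24 h for 27, 12 h for 21, the mock for 20, 48 h with tunicamycin for 19, 36 h for 11 and 3 h for 10. The lowest was that of 24 h for 43 members, of 0 h and of 3 h for 38 each, and of 36 h for 31. The lowest was in 12 h for 21 members, in 48 h with tunicamycin for 13, in the mock for 9 and in 6 h for 7. Among all well-expressed genes, 20.5% were highest at 6 h and 28.99% lowest at 24 h. Over the 19900 pairs of members, the correlation of log2 levels across the 24 libraries had a median of 0.07, with 0.27 at the upper quartile and -0.14 at the lower, a description of points that share libraries.

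With library totals as the scale, the members as a group sat highest at 6 h, and this did not hold with TMM. The median member stood 3.19% above its own mean at 6 h, with 155 of 200 members above it, and at 3 h the median was -1.58%, with 70 above. The later medians were -1.12% for 12 h, -0.80% for 24 h and -1.22% for 36 h. For 0 h it was 0.05%, for 48 h with tunicamycin 0.52% and for the mock 0.94%. On the log2 scale against 0 h, the median member stood at 0.04 and the median of all genes at 0.06 at 6 h with library totals. With TMM the median member stood at 0.00 at 6 h and 0.02 at 3 h. The largest deviations of any member's group mean were -16.8% at 24 h and 16.1% at 3 h.

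Together the members took 2.37% to 2.62% of the reads of a library, with a mean of 2.47% ± 0.0601 (SD, n = 24 libraries) and a CV of 2.44%. The lowest share was that of library III of 24 h and the highest that of library III of 6 h. At 0 h the share was 2.54%, 2.51% and 2.46% in libraries I, II and III. At 48 h it was 2.46%, 2.54% and 2.42% with tunicamycin and 2.49%, 2.51% and 2.48% in the mock, and these groups overlapped.

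**Figure D3:**
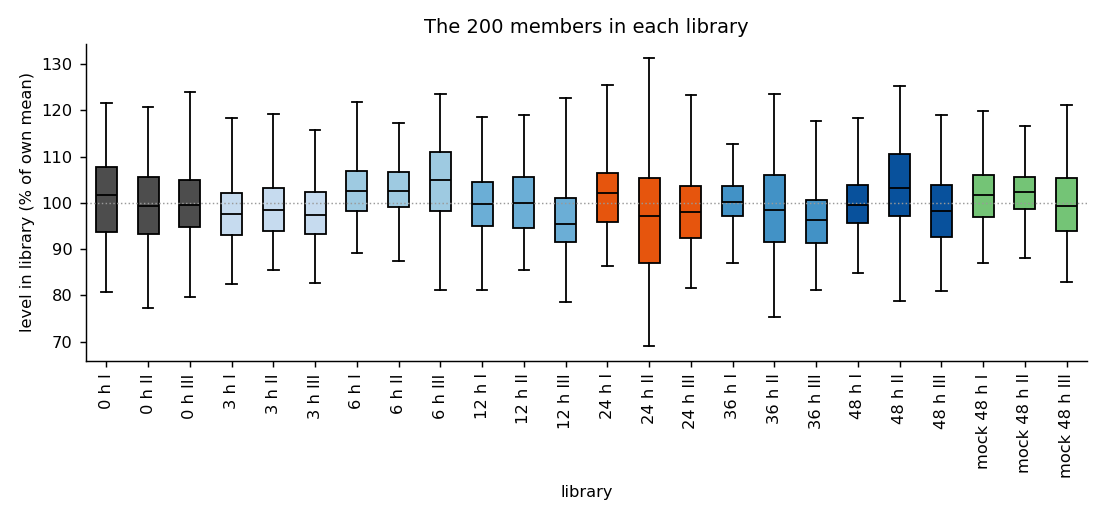
Level of the 200 members in each library, as a percentage of each member's own mean over the 24 libraries. Boxes span the quartiles with the median as a line, and whiskers reach the lowest and highest member. Library II of 24 h has the widest box, and the median member stands at 97.2% of its mean there.

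Library II of 24 h stood apart among the members. The SD over members of the log2 ratio to their own mean was 0.205 there and 0.075 to 0.138 in the other 23 libraries, where counting alone gives 0.058 in library II of 24 h. In it, 40 members lay over 20% from their mean, against 0 to 4 in any other library. It was the lowest library of 43 members and the highest of 21. On the first principal component of the members, which held 16.2% of their variance, this library alone made up 72.8%.

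Which genes are members rests on this library more than on any other. When the rule was applied without library II of 24 h, it picked 117 of the 200 members again. Leaving out any other single library kept 177 to 194 members, with a median of 190. The 83 genes that entered without it had a median CV of 7.71% over the 23 remaining libraries and 10.7% over all 24. In the left-out library their median distance from their mean over the other libraries was -35.7%, and 72 of the 83 lay below that mean. For the 117 members that were kept the median was -6.79%, with a range of -31.9% to 33.0%. Without the whole 24 h group, 100 members were kept.

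**Figure D4:**
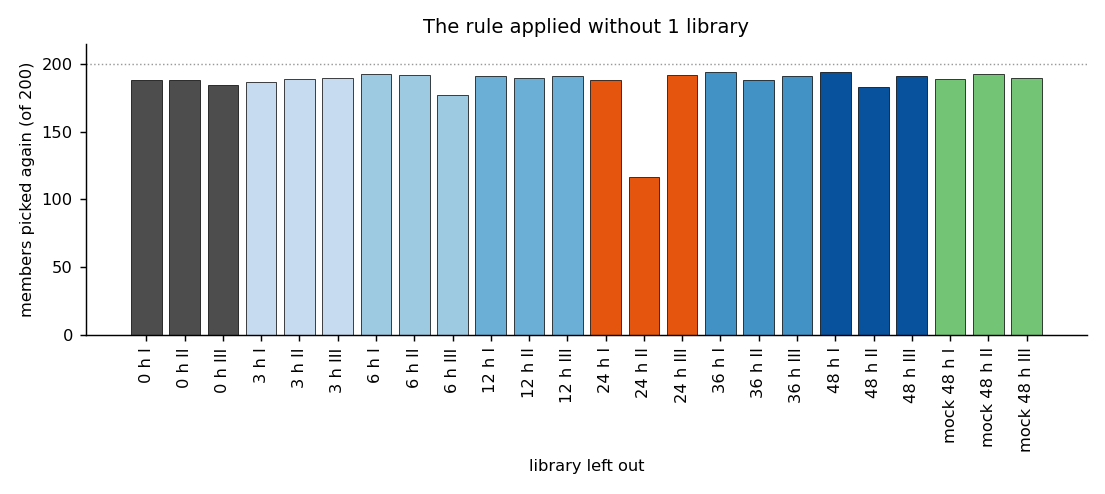
Number of the 200 members that the rule picks again (vertical axis, from 0) when 1 of the 24 libraries is left out (horizontal axis). The bar for library II of 24 h stands at 117, and the others at 177 to 194.

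Other forms of the rule also exchanged many genes. With CPM scaled by TMM factors, an edgeR scaling that trims genes with large changes, 127 of the 200 members were picked again, and with median-of-ratios scaling 124. The SD of log2(CPM + 1) in place of the CV kept 192 members, and the CV of the 8 group means kept 119. The median absolute deviation divided by the median, which gives little weight to single libraries, kept 76. A minimum of 25 CPM widened the choice to 9491 genes and kept 117, and a minimum of 100 CPM narrowed it to 2151 genes and kept 72.

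The lanes of a library give a further look at the spread. Over the 23 libraries with 2 lanes, the SD over members of the log2 ratio of lane 7 to lane 6 ran from 0.095 in library III of 6 h to 0.805 in library III of 24 h. Its median was 0.187, where counting alone gives a median of 0.065. For all well-expressed genes the median SD was 0.319, and the members were narrower in 23 of 23 libraries. The lane reads are the same reads that chose the members, so this too is a description.

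The lanes of library III of 24 h disagreed, with 2020493 reads on lane 6 and 14612166 on lane 7. The members took 2.22% of the reads on lane 6 and 2.40% on lane 7 there. Over the 47 lane samples, the CV of the members had a median of 11.9% and reached 27.6%. Without lane 6 of that library the median was 10.5% and the highest 16.9%. The rule kept 105 members on lane 6 alone, where the genes then picked had a median CV of 12.2%. On lane 7 alone, which lacks library II of 24 h, it kept 78, and the genes then picked had a median CV of 6.88%.

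**Figure D5:**
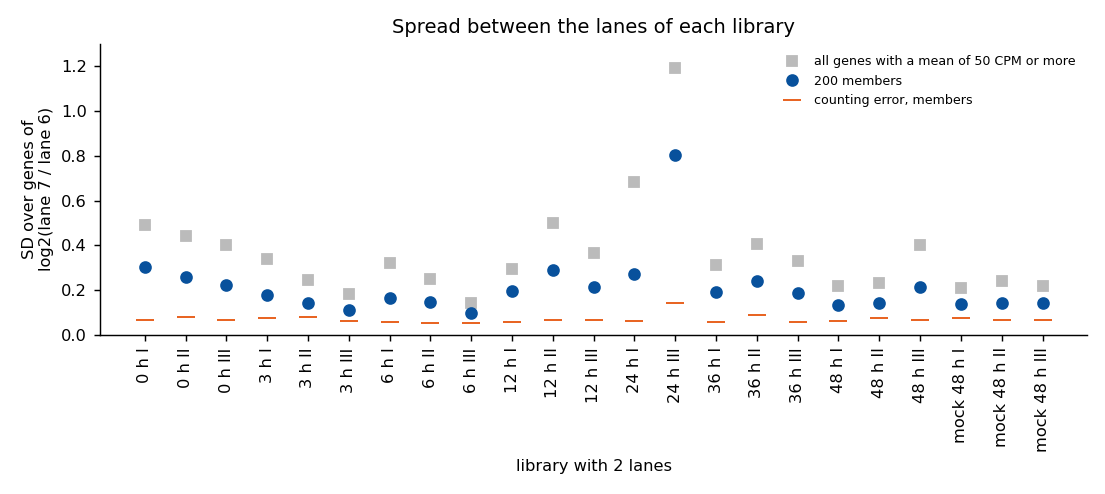
SD over genes of the log2 ratio of lane 7 to lane 6, for each library with 2 lanes. Blue points are the 200 members (0.095 to 0.805), grey squares all 5115 well-expressed genes, and orange dashes the counting error of the members.

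Libraries of a group were not equally far from each other. Over the members, the SD of the log2 difference between libraries I and II had a median of 0.090 over the 8 groups. It was 0.155 between I and III and 0.159 between II and III. Libraries I and II were the closest pair in 7 of 8 groups, all but 24 h. The closest of all were those of 6 h, at 0.063. A chi-square of the member counts per degree of freedom was 2.48 to 28.1 over all 24 pairs, above the 1 expected from counting alone. Lanes of 1 library also differed beyond counting, by a median SD of 0.187, so this does not show whether libraries I and II came from separate material. By these medians, lanes, read here as technical replicates, differed more than libraries of a group did. Each lane holds only part of a library's reads. All were kept as separate libraries because they are labelled so. When libraries I and II of each group were averaged, the rule kept 152 members.

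Differential expression was tested over all 23753 genes, and few members were called. A gene was called where the Benjamini-Hochberg adjusted p of edgeR's quasi-likelihood test, with TMM scaling, was below 0.05. Every one of these contrasts uses the libraries that chose the members, so the counts stand beside the share of all genes called and nothing is read from the difference. The comparisons with 0 h share the 0 h libraries. Mock treatment was sampled at 48 h only, so comparisons of treated roots with 0 h cannot tell tunicamycin from elapsed time. Any difference among the 8 groups was called for 0 of 200 members, against 33.1% of all genes and 39.4% of the well-expressed genes. At an unadjusted p below 0.05 there were 9 members, beside 48.7% of all genes. DESeq2 called 29 members by its likelihood ratio test, beside 50.3% of the genes it tested.

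Against 0 h, 3 members were called at 3 h, all higher, where 15.7% of all genes were called (8.28% higher), and 19.1% of the well-expressed genes. At 6 h 8 members were called, 7 higher and 1 lower, where 27.9% of all genes and 31.5% of the well-expressed genes were called. At 24 h 4 members were called, 1 higher and 3 lower, beside 18.2% of all genes and 21.7% of the well-expressed genes. At 36 h 2 members were called, both lower, beside 8.68% of all genes (4.49% lower) and 11.2% of the well-expressed genes. At 48 h 9 members were called, 3 higher and 6 lower, beside 24.0% of all genes and 27.3% of the well-expressed genes.

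In the remaining comparisons 0 members were called. At 12 h against 0 h, edgeR called 1.28% of all genes and 1.90% of the well-expressed genes. An unadjusted edgeR p below 0.05 was reached by 10 members and by 14.9% of all genes, and DESeq2 called 0 members and 3.63% of genes. At 48 h with tunicamycin against the mock, edgeR called 0.472% of all genes and 0.782% of the well-expressed genes. Such an unadjusted p was reached by 1 member and by 8.76% of all genes, and DESeq2 called 0 members and 1.11% of genes. In the mock against 0 h, edgeR called 2.06% of all genes and 2.29% of the well-expressed genes. Such an unadjusted p was reached by 5 members and by 21.4% of all genes, and DESeq2 called 1 member and 6.71% of genes. In all, 19 members were called in at least 1 of the 8 comparisons, 13 of them in 1, 5 in 2 and 1 in 3. The same held for 45.3% of all genes and 51.5% of the well-expressed genes. The called changes lay between 1.20-fold and 1.32-fold in either direction.

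These counts changed when single libraries were left out, and so did those over all genes. Without library I of 0 h the genes called fell from 3726 to 1800 at 3 h, from 6627 to 3461 at 6 h and from 4316 to 2382 at 24 h. They fell from 2062 to 480 at 36 h and from 5706 to 2788 at 48 h, and leaving out library II of 0 h gave 1675, 3280, 2303, 499 and 2619. Leaving out library III of 0 h did not lower them in this way and gave 3988, 7233, 4066, 3487 and 6421. The members called were then 3, 8, 3, 4 and 7. The 3 members of 3 h became 0 when library I or library II of 0 h, or any library of 3 h, was left out. The 8 of 6 h became 0 when library I or library II of 0 h was left out, and without a library of 6 h they were 2 (I), 0 (II) and 4 (III). The 4 of 24 h became 0 with library I or library II of 0 h left out. They were 2 without library I of 24 h and 11 without library III of 24 h, beside 17.9% and 19.3% of all genes. The 2 of 36 h became 0 with either of them or any library of 36 h left out, and 4 without library III of 0 h. The 9 of 48 h became 1 with library I or II of 0 h left out. Without a library of 48 h they were 3 (I), 1 (II) and 3 (III), beside 16.9%, 15.3% and 16.4% of all genes. With libraries I and II summed, edgeR called 0 of 200 members in each comparison, with 0 to 8 members at an unadjusted p below 0.05, and DESeq2 was not run on the sums. Of all genes, 0% to 0.935% were called there.

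Some members were called in the same direction at several times. These calls share the 0 h libraries, so they are not independent of each other. The 2 genes below were chosen after their values were seen, from the 5 members called in 2 comparisons and the 1 called in 3. The calls of the others are not described by gene. Zm00001d039162 was called higher at 3, 6 and 48 h, and held 120.9, 109.3 and 129.97 CPM at 0 h. It held 144.0, 151.8 and 142.9 CPM at 3 h and 148.4, 160.1 and 148.3 CPM at 48 h with tunicamycin, all above 0 h. Its libraries of 6 h, at 164.7, 154.2 and 132.7 CPM, lay above those of 0 h as well. The mock libraries held 132.0, 139.8 and 133.5 CPM, above 0 h and below 48 h with tunicamycin. It also had the largest log2 fold change of all members at 48 h against the mock, 0.16.

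Zm00001d007960 was called lower at 36 h and 48 h. It held 178.7, 181.6 and 175.6 CPM at 0 h, 144.4, 135.0 and 140.4 CPM at 36 h, and 145.6, 151.3 and 132.6 CPM at 48 h with tunicamycin. The mock libraries, at 160.3, 159.2 and 145.1 CPM, lay below 0 h too, and they overlapped those of 48 h with tunicamycin. The 0 h libraries were its 3 highest of the 24. Its change at 36 h was the largest called change of any member, a log2 fold change of -0.40.

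The lowest log2 fold change at 48 h against the mock was that of Zm00001d028655, -0.25. It held 61.0, 60.5 and 66.9 CPM with tunicamycin and 79.7, 71.6 and 71.9 CPM in the mock. The groups do not overlap, and the gene was not called. Over all members the median log2 fold change in this comparison was -0.02, where it was 0.00 over all genes.

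Used as the scale for every library, the summed reads of the 200 members gave factors near 1 relative to the library total, as the rule, which picks constant shares of that total, makes them. Relative to the library total, the member factors ran from 0.963 in library III of 24 h to 1.06 in library III of 6 h, and the TMM factors from 0.892 in library II of 24 h to 1.07 in library III of 24 h. With the member factors 3251 genes were called for 3 h against 0 h, where TMM gave 3726, and 5933 for 6 h, where TMM gave 6627. For 24 h the counts were 3901 and 4316, for 36 h 1744 and 2062, and for 48 h 5224 and 5706. With member factors the median log2 fold change of all genes at 36 h was 0.12, where it was 0.02 with TMM. At 48 h against the mock the counts were 116 and 112, and in the mock against 0 h they were 326 and 490. The larger direction turned at 3 h, from 1966 higher and 1760 lower with TMM to 1618 and 1633 with member factors. It also turned at 6 h, from 3342 and 3285 to 2700 and 3233, and at 36 h, from 996 and 1066 to 1010 and 734.

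The split of the few member calls by direction also differed with the scaling. At 6 h the 7 higher and 1 lower became 5 and 3 with member factors and 6 and 2 with median-of-ratios factors. Over all genes the 6 h splits were 3342 and 3285 with TMM, 2700 and 3233, and 3282 and 3379. At 24 h the 1 higher and 3 lower became 3 and 2 with member factors, 0 and 4 with median-of-ratios factors and 2 and 2 with library totals only. Over all genes the 24 h splits were 2375 and 1941 with TMM, 2394 and 1507, 2318 and 2054, and 2211 and 1736. At 48 h the 3 higher and 6 lower became 4 and 2 with member factors and 5 and 4 with library totals only. Over all genes the 48 h splits were 2882 and 2824 with TMM, 2771 and 2453, and 2835 and 2594. At 3 h the 3 higher and 0 lower became 2 and 3 with library totals only. Over all genes the 3 h splits were 1966 and 1760 with TMM and 1462 and 2058 with library totals.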

How the data were processed

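RNA from maize roots was sequenced from both ends. Per the submitters' processing notes, STAR, featureCounts and edgeR were used (no versions). Genome build and annotation: not given in the sources used here. Read counts per gene were deposited by the authors for 24 libraries, and RPKM values per lane for 47 of 48 lane samples; lane 7 of library II of 24 h was not used here. Lanes of 1 library carry differing time labels and replicate numbers, so samples were grouped by library name, as in the count columns. Counts divided by the deposited RPKM, in the library used with 1 lane, gave gene lengths on a scale set to make them whole numbers. Genes without reads there took their length from the other libraries. Lane totals of the other libraries were fitted to their counts by least squares, which gave the reads of each lane. Of these lane values, 100% were whole within 0.001 reads, and their sums equalled the counts.

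CPM in the rule and in all levels used library totals. Tests used edgeR 4.0.16 in R 4.3.3 (TMM factors, quasi-likelihood, 8 groups in 1 model), with DESeq2 1.42.0 as an alternative; edgeR's low-count filter removed 0 genes. The steps were tested on simulated data. Counting errors cover read number only. The members and lists were chosen with earlier results of these data known. Identifiers were named by rule: the 4 lowest CVs, the 2 highest levels and the lowest, the extremes of group range and of 48 h against mock, and ranks 200 and 201. Zm00001d007960 was named outside the rule, after its values were seen. Zm00001d039162 met the rule at 48 h against mock, and its calls against 0 h were described after they were seen. At 6 h against 0 h, 48 h against mock and mock against 0 h, same-numbered libraries deviated together (correlations from 0.161 to 0.438); at the other times at least 1 of 3 pairs was at or under 0.1, and the labels do not say what the numbers mark.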

Additional observations from a re-analysis of the deposited data

How the results depend on the processing

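The number of the 200 members picked again was 127 with TMM-scaled CPM, 124 with median-of-ratios scaling, 117 and 72 with a minimum of 25 and 100 CPM, 76 with the median absolute deviation, 119 with the CV of group means, 105 on lane 6, 78 on lane 7 and 127 with the CV over 47 lane samples. Without the 24 h group it was 100. Leaving out 1 library or 1 library number kept 107 to 194 members, with 158, 107 and 132 without number I, II or III. The median CV of the 200 genes picked, 8.45% for the members, was 10.1% with a minimum of 100 CPM, 5.15% for group means, 12.2% on lane 6, 6.88% on lane 7, 11.2% over 47 lane samples and 10.2% over 46, 7.18% without the 24 h group, and 7.02% to 8.68% without 1 library or number. For the members themselves the median was 13.3% on lane 6, 8.21% on lane 7, 11.9% over 47 lane samples and 10.5% over 46. The lane 6 and 7 fits, the sums of libraries I and II, and the lane CVs were chosen after seeing the data.

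Members called numbered, for 3, 6, 24, 36 and 48 h against 0 h, 9, 13, 13, 7 and 14 with DESeq2, 7, 2, 0, 1 and 0 with only the 2 groups in the model, 15, 15, 50, 1 and 9 on lane 6, 4, 9, 1, 6 and 11 on lane 7, 5, 9, 4, 1 and 9 with library totals only, and 4, 8, 5, 1 and 6 with member factors. Of all genes, the shares called at these times were 20.2%, 33.0%, 22.1%, 14.8% and 29.4% with DESeq2, 23.8%, 28.98%, 3.07%, 11.7% and 23.9% with only the 2 groups, 22.6%, 32.6%, 43.9%, 5.24% and 25.7% on lane 6, 10.1%, 21.8%, 4.51%, 13.2% and 16.1% on lane 7, 14.8%, 26.6%, 16.6%, 7.88% and 22.9% with library totals only, and 13.7%, 24.98%, 16.4%, 7.34% and 21.99% with member factors. With libraries I and II summed they were 0 members in each, with 2 libraries a group. The mock against 0 h had 1 with DESeq2 and 1 on lane 6, beside 6.71% and 4.298% of all genes. Any group had 29 with DESeq2 (50.3% of all genes), 45 on lane 6 (61.6%), 1 on lane 7 (13.01%), 2 with library totals only (30.1%), and 1 each with median-of-ratios factors, member factors or a minimum mean of 1 CPM (33.5%, 28.8% and 34.1%). With the replicate block any group had 2 (44.1% of all genes), and 3, 6, 24, 36 and 48 h had 4, 10, 6, 3 and 11 (19.7%, 34.4%, 21.9%, 15.2% and 30.5%); 21 of 24 libraries correlated best with their own number, a hint from the data and not the design. Leaving out 1 library gave 0 to 3, 0 to 8, 0 to 11, 0 to 4 and 1 to 7 at these times, 0 to 1 in the mock against 0 h and 0 to 7 for any group. At 12 h and at 48 h against the mock, edgeR and DESeq2 called 0 members under all alternatives run. The called fold changes of Zm00001d039162 and Zm00001d007960 kept their direction in 16 of 16 alternatives each and lost the call in 6 or 7. The cause of these differences was not tested.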
